A study of Mus musculus with 21 samples.

Results

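The edges described here are the borders of chromatin domains that appeared at the same place, to within 40 kb, in all 4 domain lists of the study, 2 from T helper cells and 2 from embryonic stem (ES) cells. An edge was any distinct start or end of a domain on a chromosome. Edges of the first Th2 list were taken as members when the second Th2 list and both ES lists each held an edge no more than 40 kb away. Positions at exactly 5, 7 and 43 Mb were left out, because the lists held edges there on several chromosomes at once. The first Th2 list had an edge at 7 Mb on 17 of 20 chromosomes, at 43 Mb on 16 and at 5 Mb on only 5. Of the 2587 edges of the first Th2 list, 2549 remained, and 966 of them (37.9%) were common to all 4 lists. The members were chosen by their positions in these same lists, so that share and the distances between matching edges are descriptions with no test.

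Domains were called from 3e Hi-C, a form of genome-wide chromosome conformation capture in which crosslinked chromatin is cut with 3 enzymes (CviQ I, CviA II and Bfa I), and ligation then joins DNA ends that lay close together in the nucleus. The Th2 libraries came from C57BL/6 mice: naive CD4+ T cells (CD4+CD25-CD62LhiCD44low) were sorted from lymph nodes and polarised in culture with IL-4, IL-2, anti-IFNγ and anti-IL-12 over 2 rounds. The ES libraries came from the R1 line (strain 129X1 x 129S1), grown on feeder cells. The labels of these 4 libraries name no edit or knockdown and no age for the mice. Cell type and mouse strain differ together between the groups and cannot be told apart. Each group had 2 libraries, and nothing in the labels says that they came from separate cultures or animals, so a spread between libraries may be technical. The lists hold positions only. The labelled cell types therefore could not be checked against marker genes, and the sequencing depth behind each list is unknown. The study's other 17 samples are not analysed here.

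A chromatin domain is a stretch of chromosome whose loci contact one another more often than they contact loci outside it. Its borders are commonly occupied by CTCF and cohesin, where CTCF halts the extrusion of chromatin loops by cohesin. Such borders limit which enhancers can reach which promoters. Many borders are known to be shared between cell types, while contacts inside domains vary more with the genes that are active. The edges below are named by their mm9 position, given as the last base on the lower side of the edge.

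The lists differed in number of edges more between cell types than within them. They held 2587 and 2568 edges in Th2 libraries 1 and 2, and 2887 and 2990 in ES libraries 1 and 2. Of the 2549 edges considered, an edge lay within 40 kb for 72% in the other Th2 list, for 53.2% in ES library 1 and for 53.7% in ES library 2. For comparison, 11.4%, 12.6% and 12.8% of all positions on the 40 kb grid of the covered chromosomes lay that close to an edge of these 3 lists, and 4.64% lay that close to an edge of all 3. Besides the 966 common edges, 564 edges were found in both Th2 lists and in neither ES list, and 305 in both Th2 lists and in 1 ES list. A further 188 edges (7.38%) were found in Th2 library 1 and both ES lists and missed the rule through Th2 library 2 alone. In the first Th2 list alone there were 413 edges, and 61 and 52 had a match in ES library 1 or ES library 2 only.

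Most common edges stood alone. Members within 40 kb of each other merged into 937 loci, of which 908 held 1 edge and 29 held 2, the end of one domain and the start of the next across a short gap. Such pairs could share a matching edge: 48 members did so in Th2 library 2, 50 in ES library 1 and 42 in ES library 2. Only 12 members were the first or last edge of their chromosome, and 4 of these were the chromosome end itself, at 129993255 on chromosome 10, 121843856 on chromosome 11, 125194864 on chromosome 14 and 61342430 on chromosome 19. At those 4 positions every list ends its last domain with the chromosome.

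Common edges were found on all 20 chromosomes covered, at uneven density. Chromosome 11 held the most per length, 67 common edges or 0.573 per Mb. Chromosomes 10 and 9 followed with 0.496 per Mb each. Chromosome X held the fewest, 26 or 0.163 per Mb, and chromosome 3 was next with 0.304 per Mb. Chromosome X also had few edges of any kind, 84 in the first Th2 list over a span of 159 Mb. As a share of each chromosome's edges the range was narrower, from 31.0% on chromosome X to 47.3% on chromosome 10.

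**Figure D1:**
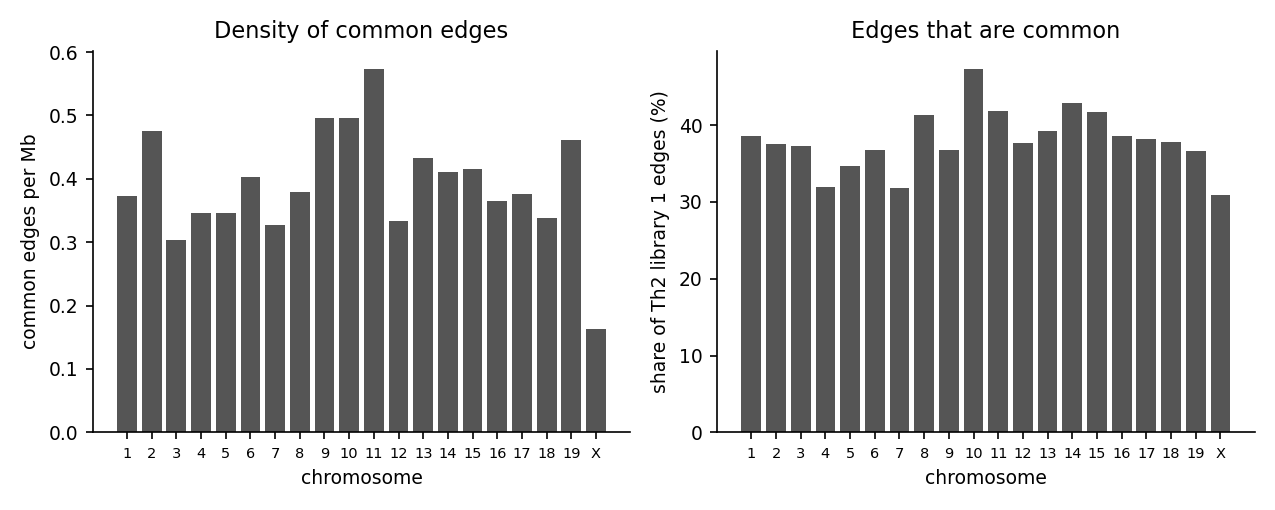
Common edges by chromosome. Bars on the left give common edges per Mb of the span covered by the 4 lists, and bars on the right the share of edges of Th2 library 1 that were common; chromosome X is lowest in both, at 0.163 per Mb and 31.0%, while chromosome 11 leads the density at 0.573 per Mb and chromosome 10 the share at 47.3%.

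Within the 40 kb allowed, the matching edges mostly fell in the identical bin. Of the 966 members, 439 (45.4%) had the same position in all 4 lists, 475 had positions spanning 40 kb and 52 spanned 80 kb. The 2 Th2 libraries placed 77.6% of the common edges at the same position, and the 2 ES libraries 74.3%. The 4 pairs of a Th2 and an ES library gave 61.2%, 63.7%, 65.4% and 66.3%. Both pairs within a cell type thus lay above every pair between cell types. The pairs share libraries, and matches were sought from the first Th2 list, so no test was made. At 127 members each cell type had 1 position in both of its libraries and the cell types differed. The ES position was the lower one at 66 of these and the higher one at 61. Where the edge was a border of the same single domain side in all 4 lists (23 of the 127), the ES domain was the longer at 13 and the shorter at 10. Shifts of this size also occurred between libraries of one cell type, and no such count over other edges stands beside the 127. They are therefore not read as edges that moved between cell types.

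**Figure D2:**
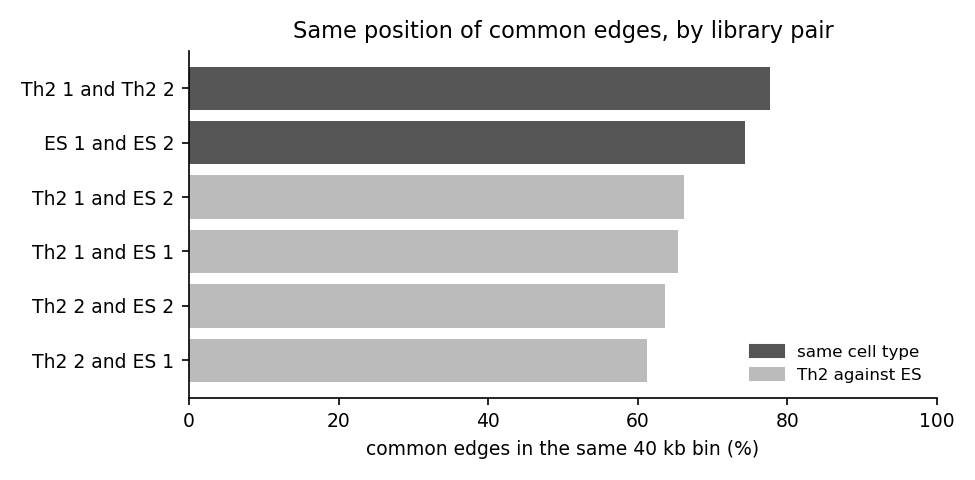
Share of the 966 common edges placed in the same 40 kb bin by each pair of libraries. Dark bars are pairs of one cell type (77.6% and 74.3%) and light bars pairs of a Th2 and an ES library (61.2% to 66.3%).

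The members just inside the rule were those whose farthest match lay 40 kb away, 527 edges. Just outside it, 135 edges had a farthest match at 80 kb. In that outer set the distance of 80 kb occurred in ES library 1 for 80 edges, in ES library 2 for 76 and in Th2 library 2 for 35.

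The authors' combined lists, called for each cell type from its libraries together, held nearly all common edges: 941 of 966 (97.4%) lay within 40 kb of an edge of the combined Th2 list and 953 (98.7%) of the combined ES list. Of the 564 edges of both Th2 lists and no ES list, 93.8% were in the combined Th2 list and 7.62% in the combined ES list. The combined lists rest on the same libraries and are not independent evidence.

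A border can part 2 domains or face a gap in which no domain was called. At common edges a domain lay on both sides, touching or no more than 40 kb away, for 67.8% and 58.5% of members in Th2 libraries 1 and 2 and for 61.4% and 58.3% in ES libraries 1 and 2. The groups overlapped, with a mean of 63.1% ± 6.59 in Th2 and 59.8% ± 2.20 in ES (SD, n = 2 each; exact permutation test, two-sided, p = 0.667). With 2 libraries a group this test cannot go below 0.333. Over all edges of each list the same shares were 57.2% and 46.7% in Th2 and 46.3% and 45.6% in ES. When the second domain had to start at the identical position, the share at common edges was 60.7% and 45.1% in Th2 and 42.9% and 36.5% in ES, a difference of −13.2 percentage points against −3.31 (exact p = 0.333, the smallest possible). Domains parted by a gap of 1 bin made up the rest, at 7.14% and 13.4% of common edges in Th2 and 18.5% and 21.7% in ES. Over all edges of each list such narrow gaps were also more frequent in ES, at 5.88% and 15.8% in Th2 and 20.2% and 23.7% in ES, so nothing about common edges is read from them. The share at the identical position was lower in ES over all edges too, at 51.3% and 30.8% in Th2 and 26.0% and 21.8% in ES. Its difference is thus not read as particular to common edges. With edges taken from ES library 1 or 2 instead, the difference in the share within 40 kb was −1.56 or −1.11 percentage points. Seen from the first Th2 list, edges between 2 touching domains were common in 586 of 1307 cases (44.8%), and edges of a single domain in 380 of 1242 (30.6%).

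The median length of the domains touching a common edge was 760 and 840 kb in Th2 libraries 1 and 2 and 880 and 920 kb in ES libraries 1 and 2. The ES medians were the higher and the groups did not overlap, but the gap between them, 40 kb, was smaller than the 80 kb between the 2 Th2 libraries. The means were 800 ± 56.6 kb in Th2 and 900 ± 28.3 kb in ES (SD, n = 2 each; exact permutation p = 0.333, the smallest possible). The medians run over unequal numbers of domains (1552 and 1402 in Th2, 1380 and 1319 in ES). Of 1923 bins beside common edges, the covering domain was longer in both ES libraries at 22.3% and shorter at 23.4%. A gap counts there as length 0. Over all bins these shares were 24.3% and 26.6%, so nothing about common edges is read from them. The size of the difference in medians rested on the Th2 libraries and on the measure used. It was 180 kb without Th2 library 2 and 70 kb without Th2 library 1, and 46.4 kb when means of 1049, 1101, 1124 and 1119 kb took the place of medians. Over all edges of each list the medians were 680 and 800 kb in Th2 and 880 and 920 kb in ES. In Th2 cells the domains at common edges (760 and 840 kb) were longer than those at edges of both Th2 lists and no ES list (600 and 720 kb in libraries 1 and 2). Those at edges of both Th2 lists and 1 ES list lay in between, at 680 and 800 kb. These differences are given as values with no test.

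**Figure D3:**
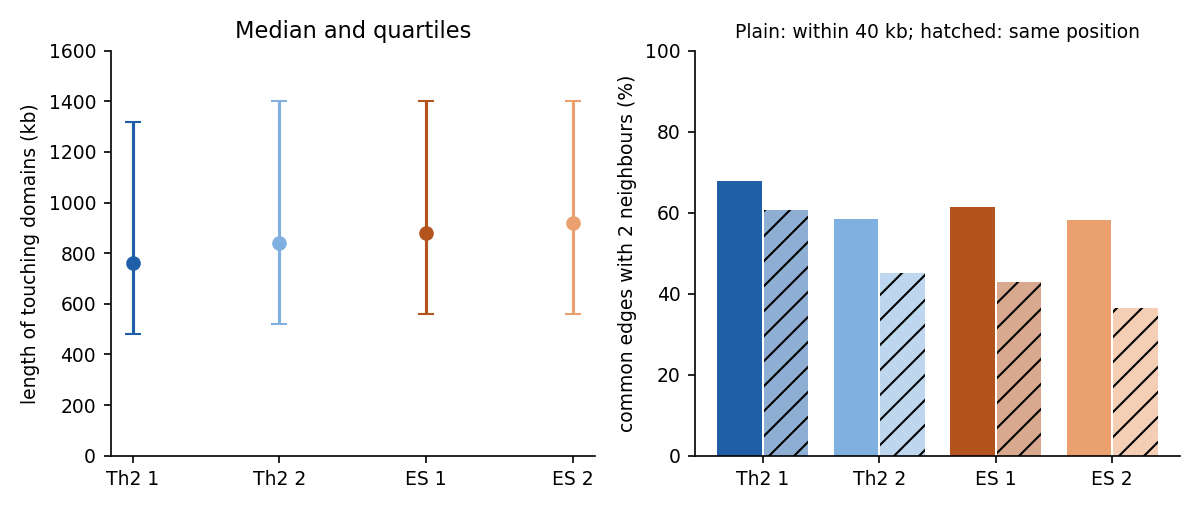
Neighbour domains at the 966 common edges in each library. The left panel gives the median (point) and quartiles (bars) of the length of domains touching the edge, 760 and 840 kb in Th2 and 880 and 920 kb in ES; the right panel gives the share of common edges with a domain on both sides, within 40 kb (plain bars) or at the same position (hatched bars), which is highest in Th2 library 1 in both counts.

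At 371 members (38.4%) a domain lay on both sides in all 4 libraries, and at 178, the 4 chromosome ends among them, only 1 side held a domain in all 4. The arrangement differed by cell type in 2 directions: at 86 both Th2 libraries had a domain on both sides where both ES libraries had a gap, and at 60 the reverse held. No such count over other edges stands beside these, so nothing about common edges is read from their numbers or order. Over all edges, Th2 library 1 also had the highest share with a domain on both sides (57.2%, against 46.7%, 46.3% and 45.6%). A related contrast was read from the bins 40 to 80 kb to either side of every member, beyond the distance the rule allowed. Of 1923 such positions, 5.77% lay in a domain in both Th2 libraries and in a gap in both ES libraries, against 3.15% of all bins of the covered chromosomes. The opposite, a gap in both Th2 libraries and a domain in both ES libraries, held at 4.26% of positions beside common edges against 7.89% of all bins. The order of the 2 directions beside common edges was thus the reverse of that over all bins. A position beside a common edge lies next to a domain in every list by the rule, which does not hold for all bins, and no test was made.

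The named members with a gap outside in both Th2 libraries were the 4 with the longest inner domain. At 66000000 on chromosome 12 the identical position was an edge in all 4 libraries. Both Th2 libraries had a domain of 4200 kb above it and a gap of 5640 kb below it, whereas the ES libraries filled the lower side with domains of 3120 and 3080 kb and held a domain of 2000 kb above. At 11160000 on chromosome 12 a gap of 560 kb in both Th2 libraries faced a domain of 600 kb in both ES libraries, where the edge lay 40 kb higher. The gaps were shorter at 88360000 on chromosome 17 (280 and 240 kb in Th2) and at 39080000 on chromosome 16 (160 kb in both). In the last case 1 ES domain of 760 kb covered, below the edge, both the gap and 600 kb that lay in a domain in the Th2 libraries, and the domain above the edge was alike in all libraries (3080, 3000, 3040 and 3040 kb).

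In the opposite direction, the edge at 34320000 on chromosome 8 parted domains of 5600 and 520 kb in Th2 library 1 and of 5720 and 520 kb in Th2 library 2. Both ES libraries had the same edge, with a gap of 200 and 160 kb on its lower side. At 141000000 on chromosome 7, domains of 1240 kb (below the edge) and 5040 or 1480 kb (above it) met in the Th2 libraries, and a gap of 160 kb lay below the edge in both ES libraries. At 129480000 on chromosome 5 and 134880000 on chromosome 3 the ES gaps were wider, at 480 and 280 kb and at 600 and 640 kb, where Th2 domains of 3480 and 3440 kb and of 2560 and 2520 kb had ended. Of the 8 named edges, 4 had the identical position in all 4 libraries, and at the other 4 (on chromosomes 12 at 11160000, 17, 5 and 3) at least 1 library placed the edge 40 kb away. Both libraries of a cell type had the same arrangement, as the rule for naming required.

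At 178 members only 1 domain bordered the edge in every library, and at 164 of these it lay on the same side in all 4, on the lower side at 82 and on the higher side at 82. At 12 the domain lay on one side in both Th2 libraries and on the other side in both ES libraries. In 11 of the 12 the Th2 domain was on the higher side and the ES domain on the lower. The libraries of one cell type put their single domain on opposite sides at 2 members in Th2 and 6 in ES, counted over all members. The 12 edges were sought after the data were seen. No count over other edges stands beside them, so nothing about common edges is read from their number or direction. At 12840000 on chromosome 1 the identical position bounded a domain of 920 kb above it in both Th2 libraries and one of 1200 kb below it in both ES libraries. At 36600000 on chromosome 10, Th2 domains of 2200 and 1920 kb lay above the edge and ES domains of 2240 kb below it. At 77120000 on chromosome 16, the single case of the other direction, Th2 domains of 4960 and 4920 kb lay below the edge and ES domains of 920 and 1000 kb above it. The swap concerns what lies next to the edge, not whole domains: above the edge at 12840000 on chromosome 1, ES domains still covered 82.6% and 78.3% of the Th2 domain, beyond a gap beside the edge. At the edge on chromosome 10 they covered 94.5% and 85.5% of the domain of Th2 library 1.

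Set beside the whole genome, the share of positions next to common edges where the covering domain was longer in both ES libraries than in both Th2 libraries, 22.3%, stood against 24.3% of all bins. The share where it was shorter, 23.4%, stood against 26.6%, with a gap counted as length 0. Requiring lengths at least 2-fold apart, a setting added once the data had been seen, left 11.1% and 10.0%, against 12.2% and 9.43% of all bins. These shares were near their backgrounds and are no result about common edges.

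Some common edges were sharp in every list. At 113 members the position was identical in the 4 libraries and both combined lists and was at once the end of one domain and the start of the next in all 4 libraries. Of these, 12 were named for the length of their shorter neighbour. At 125080000 on chromosome 2 the neighbours were nearly the same in both cell types: below the edge a domain of 2400, 2360, 2440 and 2440 kb in Th2 libraries 1 and 2 and ES libraries 1 and 2, and above it one of 1320, 1320, 1280 and 1280 kb. The edge at 122480000 on chromosome 1 was as steady, with 2360, 2400, 2320 and 2320 kb below and 1040, 1040, 1000 and 1000 kb above. Here the 2 domains on either side of the edge were recovered almost unchanged in 4 libraries.

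Other edges of this set kept their place while the domains around them differed. At 83040000 on chromosome 7, Th2 domains of 560 and 560 kb below the edge and 520 and 480 kb above it stood against ES domains of 1520 and 3520 kb below and 2880 and 2880 kb above. At 19320000 on chromosome 2 the Th2 domains were 560 and 600 kb below and 360 and 360 kb above, and the ES domains 2000 kb below and 2520 kb above in both libraries. The ES domains were longer than the Th2 domains on both sides of these 2 edges, with no overlap. The edge at 51000000 on chromosome 3 showed the opposite on one side: the domain below it measured 8000 kb in both Th2 libraries and 2120 kb in both ES libraries, while the domain above it measured 1040 kb in all 4. At 48600000 on chromosome 13 the domain above was 680 kb in both Th2 libraries and 1440 kb in both ES libraries, and the one below was 1200 kb in both Th2 libraries against 1440 and 1400 kb. At 54000000 on chromosome 12 the domain below was 880 kb in both Th2 libraries and 1560 and 1600 kb in ES, and the one above was 1160 kb in 3 libraries and 1800 kb in ES library 2.

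At the 5 remaining edges of the set the libraries of one cell type differed among themselves. The ES libraries also did so on one side of the edges at 83040000 on chromosome 7 and 54000000 on chromosome 12, described above. At 52320000 on chromosome 15 the domain below the edge was 800 kb in Th2 library 1 but 3000 kb in Th2 library 2, next to 3600 and 3560 kb in ES. At 20440000 on chromosome 3 it was 1000 and 3720 kb in the Th2 and 640 and 1400 kb in the ES libraries. At 109640000 on chromosome 7 the ES libraries gave 1600 and 840 kb below the edge. At 135160000 on chromosome 2 the domain above was 680 and 1800 kb in Th2 and 2640 and 800 kb in ES. At 172040000 on chromosome 2 the domains above the edge were 1360 kb in both Th2 and 600 kb in both ES libraries, and those below were 1680 kb in both Th2 and 1320 and 720 kb in the ES libraries. A fixed edge thus did not fix the far end of its domains, even between libraries of one cell type.

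Close to a common locus, other edges were sparser than over the whole grid. Counted at single positions on the grid, 2.31% and 2.04% of positions 200 kb from a common locus held an edge in Th2 libraries 1 and 2, and 2.09% in each ES library. Over the whole grid the shares were 4.13%, 4.10%, 4.60% and 4.77%. At 560 kb every share was above these values, at 6.01%, 5.26%, 5.90% and 5.47%. At 680 kb the shares were 3.97%, 4.13%, 3.92% and 4.67%, below them except in Th2 library 2. From 760 to 1000 kb every library lay above its whole-grid share at each distance. At 80 kb the ES libraries (3.97% and 3.81%) had more edges than the Th2 libraries (2.14% and 2.73%). These positions lie just beyond the distance at which an ES edge would count as a match to a Th2 edge. The shortest domains in the lists are a few bins long, which limits how near a second edge can lie. That limit holds at any edge, and the same count around other edges was not made. Neither the dip nor the higher shares farther out are read as a trait of common loci.

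**Figure D4:**
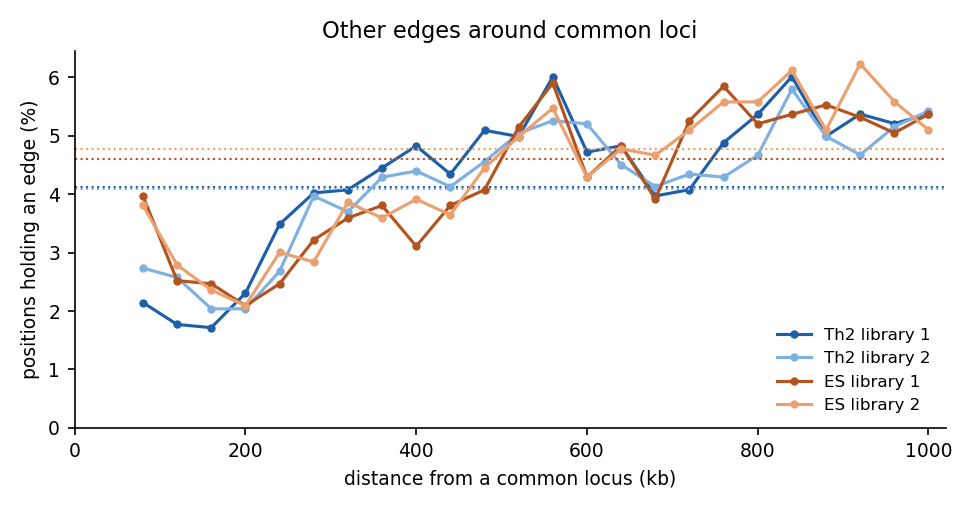
Share of grid positions that hold an edge, by distance from a common locus (80 kb and beyond), in each library; dotted lines give the share over the whole grid. All 4 libraries lie at about 2% near 200 kb, and from 760 to 1000 kb each lies above its whole-grid share. The same count around other edges was not made.

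Consecutive common loci cut the chromosomes into 917 segments with a median length of 1600 kb (quartiles 880 and 2960 kb), and 123 were longer than 5 Mb. Between these shared landmarks the lists held 1520 and 1420 further edges in Th2 libraries 1 and 2 and 1694 and 1750 in ES libraries 1 and 2. Per Mb these were 0.636 and 0.594 in Th2 and 0.709 and 0.732 in ES. The groups did not overlap, with means of 0.615 ± 0.0296 and 0.721 ± 0.0166 per Mb (SD, n = 2 each; exact permutation p = 0.333, the smallest possible). Domains filled 79.9% and 77.7% of the segment length in Th2 and 85.0% and 85.3% in ES, again with no overlap (exact permutation p = 0.333). The ES lists also held more edges and covered more sequence over the whole genome, 2123 and 2141 Mb against 1998 and 1941 Mb. The number of domains did not follow this order, at 1961 and 1689 in Th2 and 1828 and 1833 in ES. Where 2 domains touch they share 1 edge, and across a gap of 1 bin they have 2. Such gaps were more frequent in the ES lists, so edges per Mb do not count domains.

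By contrast, the share of segments that no further edge divided was alike: 38.5% and 41.3% in Th2 and 39.6% and 40.3% in ES. In 216 segments (23.6%) no library had an interior edge. Both Th2 libraries left 63 segments undivided that both ES libraries divided, and both ES libraries left 71 undivided that both Th2 libraries divided. These are 6.87% and 7.74% of segments. In 1559 windows of 1600 kb laid end to end over the chromosomes, the same held for 7.25% and 2.44%. The segments vary in length and leave out the common edges, while the windows have a fixed length and count all edges. The windows are thus not a like background, and the difference was not tested. Both ES libraries had more interior edges than both Th2 libraries in 186 segments (20.3%) and fewer in 127 (13.8%). In the windows, which count the common edges too, these shares were 21.9% and 11.5%. Nothing about common edges is read from either.

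The widest stretch without a common edge ran from 78960000 to 115200000 on chromosome 14, 36240 kb. Th2 libraries 1 and 2 had 13 and 11 edges in it and domains over 10040 and 11240 kb, and ES libraries 1 and 2 had 23 and 21 edges and domains over 29960 and 34280 kb. ES domains thus covered most of a stretch that lay mainly outside domains in Th2 cells. The next, of 27120 kb each, ran from 44720000 to 71840000 on chromosome 5 and from 103960000 to 131080000 on chromosome X. On chromosome 5 domains covered 14200 and 16840 kb in Th2 and 20200 and 23520 kb in ES. On chromosome X they covered 18240 and 18800 kb in Th2 and 19440 and 20640 kb in ES, with 8 and 7 edges in Th2 and 12 and 10 in ES. In all 3 stretches both ES libraries had more sequence in domains than both Th2 libraries.

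The longest run of neighbouring edges in the first Th2 list that were all common had 7 edges, from 120720000 to 126320000 on chromosome 10, 5600 kb in length. Of these, the edges at 121040000 and 121080000 lie 40 kb apart and shared matches in the other lists. A run of 6 spanned 4680 kb from 144440000 to 149120000 on chromosome 2. The third, the first in chromosome order among 11 runs of 5, spanned 8600 kb from 65320000 to 73920000 on chromosome 1. Most runs were short, and 362 held a single common edge.

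A domain of the first Th2 list could have a common edge at both ends, which was the case for 293 of its 1961 domains. Their median length was 960 kb, against 680 kb for all domains of the list. With both ends fixed by the rule, the interior still differed. In Th2 library 2, 242 of the 293 (82.6%) were found as 1 domain with both ends within 40 kb. A further 48 held 1 or more inner edges, here called split. Split does not always mean subdivided, since an inner edge can also part a shorter domain from a gap. At chr6:131440001-134360000 domains covered only 37.0% and 20.5% in ES libraries 1 and 2, and at chr4:34880001-40000000 only 7.81% in Th2 library 2. In ES libraries 1 and 2, 197 (67.2%) were found whole in each, and 95 were split. All 3 other libraries had 164 of them (56.0%) whole, and these had a median length of 640 kb, against 1280 kb for the remaining 129. At 55 the domain was whole in Th2 library 2 and split in both ES libraries, and at 16 it was split in Th2 library 2 and whole in both ES libraries. The domains were taken whole from a Th2 list, so these counts are not on equal terms.

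Among the domains found whole in all 4 libraries the longest was chr17:9200001-12200000, at 3000 kb in every library. It was followed by chr5:11920001-14880000, at 2960, 3000, 2960 and 3000 kb in Th2 libraries 1 and 2 and ES libraries 1 and 2, and chr3:154280001-157200000, at 2920, 2880, 2920 and 2920 kb. The shortest was chr14:20920001-21120000, at 200 kb in all 4. Then came chr16:91680001-91920000 at 240 kb in all 4 and chr4:40640001-40920000 at 280 kb in 3 libraries and 240 kb in ES library 2. A shared domain could thus span 5 bins of the grid or many, with the same borders in T helper and stem cells.

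**Figure D5:**
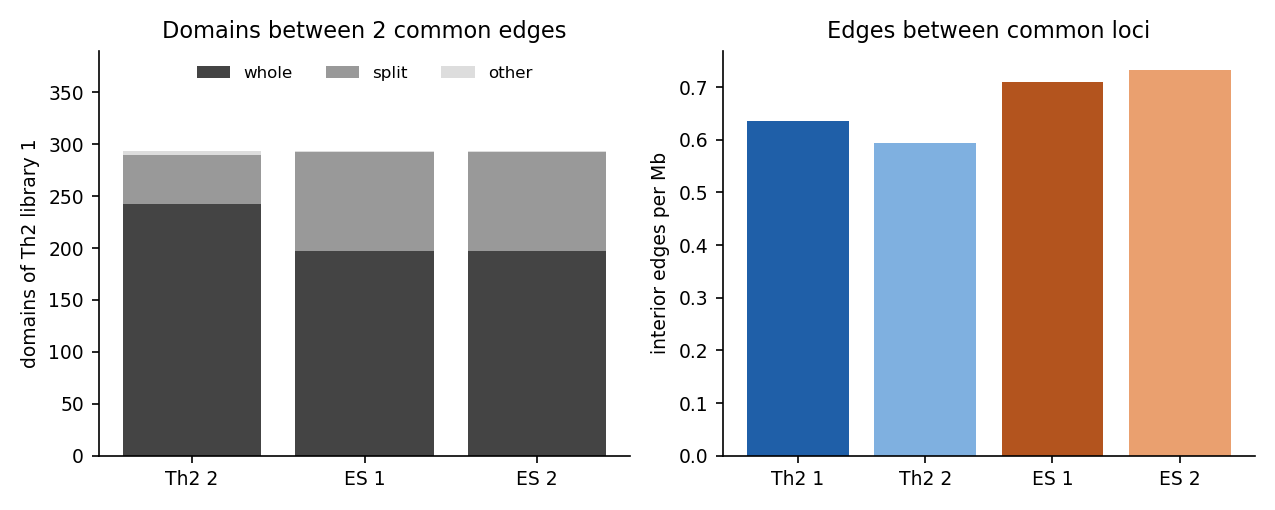
What lies between common edges. In the left panel, split means 1 or more inner edges, also where a gap takes up the rest. The left panel shows how the 293 domains of Th2 library 1 with 2 common edges were found in each other library, whole in 242 in Th2 library 2 and in 197 in each ES library; the right panel gives further edges per Mb between consecutive common loci, 0.636 and 0.594 in Th2 and 0.709 and 0.732 in ES.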

How the data were processed

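3e Hi-C domain lists of 2 Th2 and 2 ES libraries were used, grouped by sample title. The submitters' processing notes name Bowtie2 and the mouse build mm9. The domain caller and its settings were not given in the sources used here. For each list the authors deposited chromosome, start and end of each domain, per library and combined per cell type, on a 40 kb grid except where a domain ends with its chromosome. These are positions with no score, depth or replicate error. Expression tables of EL4 cells were not used, and gene content and sequence at the edges were not analysed here, because the gene tables used are of another build.

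Matching took the nearest edge, and on equal distance one of the same side. Neighbour domains were read at the matched edge in each library. Library values were compared with two-sided exact permutation tests over the 3 splits of 4 libraries. Backgrounds are the same counts over all grid positions or 40 kb bins, and for segments counts of all edges in windows, without resampling. Edges were named by rules on sharpness, neighbour length, spacing, run length and arrangement, with ties by chromosome and position. Members, rules and tests were chosen with earlier results of these data known. The matching code was checked on simulated lists, in which the other lists held only kept edges moved by at most 40 kb. Those lists had no edges of their own, so the check says nothing on coincidental matches in the real lists. Alternatives changed distance, side, starting list, excluded positions and libraries. Python 3.11.15, numpy 2.4.6, pandas 2.3.3 and matplotlib 3.10.9 were used.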

Additional observations from a re-analysis of the deposited data

How the results depend on the processing

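The number of common edges was 439 when positions had to be identical and 1541 when the combined Th2 list was compared with the combined ES list, against 966; it stayed within 1.5 times of 966 under the other 12 alternatives and was 1108 to 1168 when 1 library was left out. Keeping the edges at 5, 7 and 43 Mb gave 998, and merging gave 937 loci. The ES minus Th2 difference in median domain length was positive under all 14 alternatives run, and 70 to 180 kb when 1 library was left out. The difference in the share of common edges with a domain on both sides (−3.31 percentage points) was −8.84 to 1.24 when 1 library was left out: without Th2 replicate 1 it turned to 1.24, so its sign rests on that library, and it was negative under the other 16 alternatives. With the second domain at the same position, it was −13.7, −19.0 and −19.6 with edges from Th2 library 2 and ES libraries 1 and 2, settings added once the data had been seen. The share at the same position was also lower in ES over all edges of each list. With the replicate block, which pairs libraries of the same number, both differences kept their values of 100 kb and −3.31, with an exact p of 0.5 each, the smallest that 2 pairs allow. Nothing in the labels says that a number marks a shared batch. Lists of positions carry no depth, so how far depth sets the number of edges was not tested.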
